A study of Homo sapiens with 8 samples.

Results

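The interleukin-6 family was examined through 10 listed genes: the cytokines IL6, IL11, LIF and CLCF1, the receptor chains IL6R, IL6ST, LIFR and OSMR, the transcription factor STAT3 and its feedback inhibitor SOCS3. Probe sets annotated to exactly 1 of these symbols were taken, 28 in all, and each gene was represented by the probe set with the highest mean over all 8 arrays, and the others were checked. The members were selected on ciclopirox minus vehicle differences seen on these same arrays, as well as on family membership, so their changes are given as a description. Of the 10 genes, 9 had a probe set, among 19774 genes with one on the array, and CLCF1 was not analysed here. Of the 9 genes, 8 reached the level filter described in the next paragraph, of 14517 genes that did.

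The arrays measured total RNA of 4 human neuroblastoma cell lines, each grown for 48 h in vehicle and in 2.5 µM ciclopirox, 1 Affymetrix array for each line and treatment. Ciclopirox is an iron-binding antifungal. The lines were SKNAS, labelled c-Myc, and NB1691, SKNBE2 and SKNAS/shHIF1a, each labelled N-Myc. The last is a stable knockdown line of HIF1A, a hypoxia-inducible factor subunit, its name ties it to SKNAS, and the labels give neither a clone number nor a control hairpin line. SKNAS and SKNAS/shHIF1a are called SKNAS-derived below. The series is titled as a study of Myc signalling and the histone demethylase JMJD2B. Values are log2 signals, so a difference of 1 is 2-fold, and a gene was tested if its mean over the arrays reached log2 3.21, the 40th percentile of all probe sets. The nearest members on either side of this filter were IL6, with a mean of 2.72, and IL6R, with a mean of 4.34.

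In RefSeq's GRCh38.p14 annotation the cytokine genes lie at chr7:22727200-22731998 (IL6), chr19:55364382-55370463 (IL11) and chr22:30240453-30246759 (LIF). LIFR at chr5:38474668-38608403, OSMR at chr5:38846012-38945579 and IL6ST at chr5:55935095-55994963 share chromosome 5. IL6R lies at chr1:154405343-154469450, and STAT3 and SOCS3 lie on chromosome 17 at chr17:42313324-42388442 and chr17:78356778-78360925. The build behind the array annotation is not given in the sources used here.

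Cytokines of this family share the signal-transducing receptor chain gp130, encoded by IL6ST. IL6 and IL11 first bind their own receptors, IL6R and IL11RA, which then engage gp130, whereas LIF and oncostatin M signal through gp130 paired with LIFR or OSMR. The receptors carry Janus kinases, which phosphorylate STAT3, and STAT3 induces SOCS3, which blocks gp130 and the kinases bound to it. Transcription of the cytokine genes themselves is driven in many cell types by NF-kB, AP-1 and C/EBP factors. In neuroblastoma, IL6 and its receptor have been studied mainly as a signal between tumour cells and bone marrow stroma.

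Array medians lay between 3.47 and 3.52, and no 2 arrays had a correlation above 0.99. HIF1A, the knockdown target, had levels of 11.71 under vehicle and 11.09 under ciclopirox in SKNAS/shHIF1a, against 12.25 and 11.94 in SKNAS and 11.88 to 12.12 in the other lines. MYCN, which encodes N-Myc, had 12.05 and 12.48 in NB1691 and SKNBE2 under vehicle, 2.77 in SKNAS and 5.41 in SKNAS/shHIF1a, while MYC had 10.16 in SKNAS and 9.86 in SKNAS/shHIF1a against 2.70 and 2.66, so the N-Myc label of SKNAS/shHIF1a goes against its own levels, and lines are grouped here by origin and not by that label. Of 7 tested noradrenergic markers of neuroblastoma, 3 were called lower in SKNAS-derived lines under vehicle (limma, adjusted p under 0.05; DBH, ISL1 and TH), while HAND2 and CHGA overlapped between origins. One of the 3 is DBH, which makes noradrenaline, at 4.79 and 5.72 against 10.90 and 9.97. Of 7 mesenchymal markers 1 was called higher, the transcriptional co-activator YAP1, at 8.78 and 8.45 against 3.55 and 3.12. In the same fit 243 of 14517 tested genes (1.67%) were called, 153 higher and 90 lower in SKNAS-derived lines. These marker calls take SKNAS and SKNAS/shHIF1a as 2 replicates, although by its name the latter comes from SKNAS. Of the markers of other cell types, 3 of 7 lymphoid and myeloid, 5 of 6 epithelial and 3 of 5 endothelial genes had means above the filter. PTPRC, the leukocyte marker CD45, had 11.53 in SKNAS and 9.57 in SKNAS/shHIF1a under vehicle, and 10.42 and 6.34 under ciclopirox, against 3.03 to 3.29 in the other lines. The other lymphoid and myeloid markers above the filter did not share this pattern: CORO1A had 4.59 and 4.56 in SKNAS and SKNAS/shHIF1a under vehicle against 5.48 and 6.28, and CD68 had 3.41 and 3.06 against 4.31 and 3.09. PTPRC therefore carries the sum. Summed on the linear scale, the 7 matched lymphoid and myeloid markers gave 142 to 3016 in SKNAS-derived arrays and 89.7 to 128 in the others, while the lymphoid and myeloid markers CD3E, CD14, LYZ and MS4A1 had means below the filter. KRT18, a keratin of simple epithelia, had 6.69 to 10.87 in SKNAS-derived arrays and 3.08 to 3.38 in the others, and carries most of the epithelial sum, which was 145 to 1993 over 6 markers against 54.6 to 74.7. EPCAM, another epithelial marker, went the other way, at 3.05 to 3.34 against 3.56 to 5.0. The 5 endothelial markers summed to 44.3 to 148 against 35.7 to 99.6, with CDH5 and KDR below the filter in mean. The part of these markers in the results below was not tested.

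RefSeq promoter sequences (GRCh38.p14) were found for 8 of the 10 members, and 4 are printed because they belong to IL6 and to the 3 genes with a promoter entry that were at least 2-fold higher in both SKNAS-derived lines under ciclopirox. Each line gives the 250 bases before the gene's start, 5′ to 3′ on the gene's strand. The IL6 window lies at chr7:22726950-22727199 on the plus strand, IL11 at chr19:55370464-55370713 on the minus strand, IL6R at chr1:154405093-154405342 on the plus strand and OSMR at chr5:38845762-38846011 on the plus strand. Capitals mark matches, on either strand, to 6 motifs: kappa-B (GGG, any 2 bases, TT, any base, CC), AP-1 (TGANTCA), C/EBP (TTGCNNAA), STAT (TTCNNNGAA), a CRE core (TGACGT) and TATA (TATANA).
IL6: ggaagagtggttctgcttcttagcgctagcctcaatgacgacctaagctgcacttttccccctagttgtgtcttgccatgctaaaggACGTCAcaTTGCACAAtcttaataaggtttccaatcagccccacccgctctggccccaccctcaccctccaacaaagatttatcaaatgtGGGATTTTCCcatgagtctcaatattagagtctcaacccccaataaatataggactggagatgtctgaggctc
IL11: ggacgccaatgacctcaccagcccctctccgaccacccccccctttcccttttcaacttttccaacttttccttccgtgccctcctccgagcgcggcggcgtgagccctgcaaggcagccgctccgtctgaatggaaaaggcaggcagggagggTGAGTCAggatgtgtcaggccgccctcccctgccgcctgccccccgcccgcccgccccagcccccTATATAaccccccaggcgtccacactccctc
IL6R: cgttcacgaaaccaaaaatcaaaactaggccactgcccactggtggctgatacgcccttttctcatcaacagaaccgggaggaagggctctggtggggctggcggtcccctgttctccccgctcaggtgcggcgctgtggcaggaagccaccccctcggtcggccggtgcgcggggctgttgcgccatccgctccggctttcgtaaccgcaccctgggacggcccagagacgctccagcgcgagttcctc
OSMR: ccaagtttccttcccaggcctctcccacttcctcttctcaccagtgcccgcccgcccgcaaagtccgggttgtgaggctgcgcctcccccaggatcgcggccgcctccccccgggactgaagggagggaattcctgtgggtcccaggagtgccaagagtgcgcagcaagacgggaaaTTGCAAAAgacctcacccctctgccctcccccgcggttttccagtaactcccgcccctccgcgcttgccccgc
The IL6 window held a CRE core on the reverse strand 163 to 158 bases before the start, a C/EBP match 155 to 148 bases before it and the kappa-B match GGGATTTTCC 73 to 64 bases before it. The IL11 window held the AP-1 match TGAGTCA 96 to 90 bases before the start and TATATA, which matches on both strands, 31 to 26 bases before it. The OSMR window held a C/EBP match 73 to 66 bases before the start, and the IL6R window held no match to these letters. None of these matches overlapped a match to a different motif. Of 35116 promoters of the same length, 5.07% held the kappa-B letters, 6.57% the AP-1, 9.05% the C/EBP, 6.57% the STAT, 7.1% the CRE core and 17.67% the TATA letters. The matches are descriptions of sequence, and no binding was measured.

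IL11, LIF, IL6R and OSMR were at least 2-fold higher under ciclopirox in both SKNAS-derived lines, and 0 of the 9 members were so in both NB1691 and SKNBE2. By line, 4 members met it in SKNAS, 4 in SKNAS/shHIF1a, 1 in NB1691 and 0 in SKNBE2, where 3.38%, 5.52%, 3.31% and 2.11% of tested genes did. Both SKNAS-derived lines together gave 4 members, where 2.47% of the 14517 tested genes met the same rule, and NB1691 with SKNBE2 gave 0, where 0.468% of genes met it. The members' median change was 0.60 in SKNAS, 0.68 in SKNAS/shHIF1a, 0.10 in NB1691 and 0.18 in SKNBE2 over the 8 tested, against medians of -0.03 to -0.01 over all tested genes. By the brightest probe set, 0 members were 2-fold lower in any line, where 9.89% of tested genes were, and of all 28 probe sets a second one of SOCS3 was, in SKNAS/shHIF1a (-1.12).

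IL11, a cytokine known for its roles in fibrosis and platelet formation, had the largest difference of the members. Its log2 level was 5.64 under vehicle and 9.58 under ciclopirox in SKNAS, and 3.55 and 9.81 in SKNAS/shHIF1a. In NB1691 it was 4.04 and 3.97, and in SKNBE2 3.15 and 3.53. Both ciclopirox arrays of SKNAS-derived lines therefore stood above the other 6 arrays, which overlapped between the origins. The change was 3.94 in SKNAS, or 15.3-fold, and 6.26 in SKNAS/shHIF1a, against -0.07 in NB1691 and 0.37 in SKNBE2. The vehicle signal of SKNAS/shHIF1a lay near the array median, so no fold is given for that line. A second IL11 probe set gave 2.72, 2.89, -0.09 and 0.66 in the same order, so its size in the knockdown line was close to that in the parent. Bulk RNA cannot tell a higher level per cell from a larger share of cells that express the gene.

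LIF, the leukaemia inhibitory factor, is a cytokine that acts through LIFR and gp130. Its level was 6.51 under vehicle and 9.08 under ciclopirox in SKNAS, 5.47 and 9.35 in SKNAS/shHIF1a, 3.27 and 4.25 in NB1691, and 2.94 and 3.0 in SKNBE2. All 4 SKNAS-derived arrays lay above the 4 other arrays, and within each SKNAS-derived line the ciclopirox array was the higher. The changes were 2.57 in SKNAS, 3.88 in SKNAS/shHIF1a, 0.98 in NB1691 and 0.06 in SKNBE2, which makes LIF the only member that was higher in all 4 lines with a change near 2-fold in a line that is not SKNAS-derived. LIF had a single probe set, so no second one could be compared.

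IL6, the cytokine that gives the family its name, was near background on every array. Its levels ran from 2.44 to 2.91 over the 8 arrays, with the highest in SKNBE2 under ciclopirox and the lowest in SKNAS/shHIF1a under ciclopirox. Its changes were between -0.15 and 0.13 in the 4 lines. IL6 was below the level filter, had a single probe set and was not tested, and its signal shows only that no level above background was measured at that probe set.

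**Figure D1:**
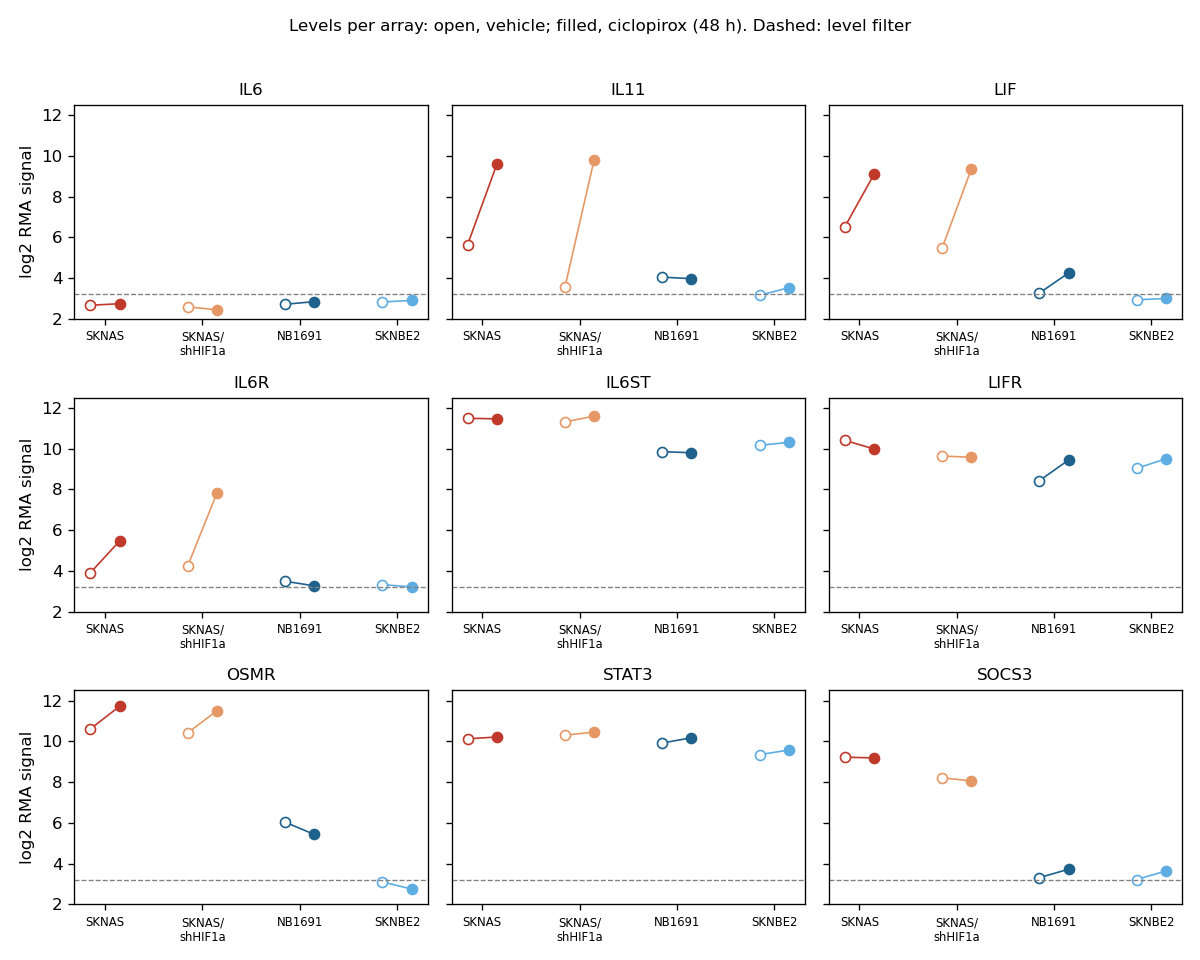
Levels of the 9 members with a probe set, on the y axis as log2 RMA signal, in each cell line on the x axis; open points are vehicle and filled points ciclopirox, 1 array each, and the dashed line is the level filter at log2 3.21. IL11 reaches 9.58 and 9.81 and LIF 9.08 and 9.35 in the SKNAS-derived lines under ciclopirox, while IL6 lies between 2.44 and 2.91 throughout.

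IL6R encodes the ligand-binding receptor for IL6. Its level was 3.91 under vehicle and 5.47 under ciclopirox in SKNAS, 4.26 and 7.83 in SKNAS/shHIF1a, 3.49 and 3.26 in NB1691, and 3.32 and 3.21 in SKNBE2. The 4 SKNAS-derived arrays were above the 4 others, narrowly under vehicle, where the gap between the nearest arrays was 0.42. The change was 1.56 in SKNAS and 3.57 in SKNAS/shHIF1a, against -0.23 in NB1691 and -0.11 in SKNBE2. A second probe set gave 1.12 and 2.59 in the SKNAS-derived lines and -0.23 and -0.06 in the others, while the third, at levels of 2.45 to 2.89, had changes of -0.26 to 0.44.

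OSMR, the receptor chain for oncostatin M, was high in SKNAS-derived lines under vehicle as well as under ciclopirox. Its level was 10.62 under vehicle and 11.72 under ciclopirox in SKNAS, 10.42 and 11.51 in SKNAS/shHIF1a, 6.03 and 5.43 in NB1691, and 3.10 and 2.75 in SKNBE2. The origins did not overlap, and the lowest SKNAS-derived vehicle array stood 20.9-fold above the highest vehicle array of the other lines, against 1.88-fold and 5.52-fold in the other 2 OSMR probe sets. The changes of 1.11 in SKNAS and 1.08 in SKNAS/shHIF1a were nearly equal, and NB1691 and SKNBE2 had -0.60 and -0.35. The other 2 probe sets gave 1.35 to 2.03 in SKNAS-derived lines, but 0.89 and -0.02 in NB1691 and 0.06 and 0.12 in SKNBE2, so the lower values in those lines belong to the brightest probe set. With all OSMR probe sets averaged, the mean change in NB1691 and SKNBE2 was 0.02.

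The shared chain IL6ST differed little with treatment. Its level was 11.48 under vehicle and 11.46 under ciclopirox in SKNAS, 11.31 and 11.59 in SKNAS/shHIF1a, 9.85 and 9.79 in NB1691, and 10.16 and 10.30 in SKNBE2. All SKNAS-derived arrays were above all others, and the mean change over the 4 lines was 0.09 ± 0.12 (limma's moderated SE, n = 4 lines, limma 95% interval -0.21 to 0.38, adjusted p = 0.746). SEs in this text are limma's moderated ones, in which each gene's spread is drawn towards that of all tested genes. Of the 7 IL6ST probe sets, 5 were above the filter, and the changes of the 6 that were not the brightest lay between -0.34 and 0.67.

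LIFR is the partner chain of gp130 for LIF. Its level was 10.40 under vehicle and 9.98 under ciclopirox in SKNAS, 9.63 and 9.57 in SKNAS/shHIF1a, 8.43 and 9.44 in NB1691, and 9.03 and 9.50 in SKNBE2. Under vehicle the SKNAS-derived lines were higher, and under ciclopirox the 4 levels ran from 9.44 to 9.98. The change in NB1691, 1.01, was the only one of at least 2-fold there among the brightest probe sets, against 3.31% of tested genes higher in that line by this rule. The 3 other LIFR probe sets gave 1.24 to 1.72 in NB1691 and 0.30 to 0.58 in SKNBE2, and -0.44 to 0.16 in the SKNAS-derived lines.

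STAT3, the transcription factor that the receptors activate, was high in every line and differed little. Its level was 10.13 under vehicle and 10.21 under ciclopirox in SKNAS, 10.31 and 10.45 in SKNAS/shHIF1a, 9.92 and 10.18 in NB1691, and 9.35 and 9.57 in SKNBE2. Each ciclopirox array was above the vehicle array of its line, by 0.09 to 0.26. The mean change was 0.18 ± 0.11 (limma's moderated SE, n = 4 lines, limma 95% interval -0.09 to 0.45, adjusted p = 0.433). A second STAT3 probe set was also higher in all 4 lines, by 0.08 to 0.53. The other 2 were not: 1 had -0.02 in SKNBE2 and -0.04 in SKNAS/shHIF1a, and 1 had -0.41 in NB1691 and 0.74 in SKNAS. Arrays measure STAT3 mRNA, and its phosphorylation was not measured.

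SOCS3, the feedback inhibitor, separated the lines more than the treatments. Its level was 9.22 under vehicle and 9.19 under ciclopirox in SKNAS, 8.21 and 8.06 in SKNAS/shHIF1a, 3.31 and 3.73 in NB1691, and 3.22 and 3.64 in SKNBE2. The origins did not overlap, and in NB1691 and SKNBE2 the signal was close to the filter, so no fold is given. The gap was smaller in a second probe set, with 6.26 and 5.24 in the SKNAS-derived lines under vehicle against 3.48 and 3.40, and the remaining one was at 3.07 to 3.38 on every array. The changes were -0.04 in SKNAS and -0.15 in SKNAS/shHIF1a, and 0.41 and 0.42 in NB1691 and SKNBE2. A second probe set gave -0.35 and -1.12 in SKNAS and SKNAS/shHIF1a and -0.14 and -0.07 in the others. The signs in NB1691 and SKNBE2 thus differed between the probe sets.

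**Figure D2:**
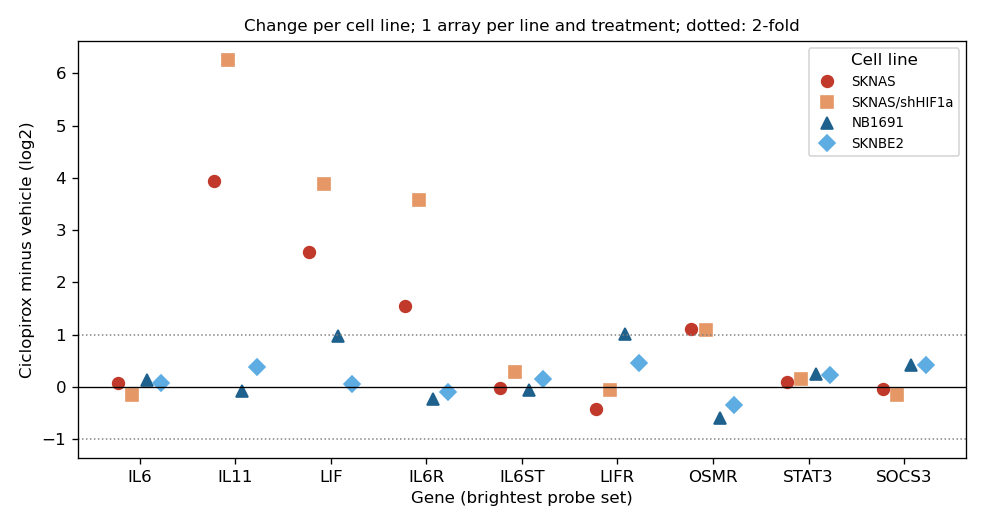
Ciclopirox minus vehicle, in log2 units on the y axis, for the brightest probe set of each member on the x axis; each point is 1 cell line, from 1 array per treatment, and dotted lines mark 2-fold. IL11 is at 3.94 and 6.26 in the SKNAS-derived lines, OSMR at 1.11 and 1.08, and STAT3 between 0.09 and 0.26 in all 4.

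In a limma fit of ciclopirox against vehicle with the cell line as a block, 0 of 14517 genes passed at an adjusted p under 0.05 (0% called), and 2599 had an unadjusted p under 0.05. None of the 8 tested members passed, 1 of them, LIF, had an unadjusted p under 0.05, and adjusted p-values of the members ran from 0.217 to 0.746. The mean changes over lines were 2.62 ± 1.07 for IL11, 1.87 ± 0.61 for LIF and 1.20 ± 0.64 for IL6R (limma's moderated SE, n = 4 lines). The plain SDs of the 4 changes were 3.01, 1.69 and 1.78 in the same order. With 1 array per line and treatment, the p-values measure the spread between lines, and SKNAS/shHIF1a, which by its name comes from SKNAS, adds less than an unrelated line would.

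The difference in response between the SKNAS-derived lines and NB1691 with SKNBE2 was fitted on the 4 changes. IL11 differed by 4.95 ± 0.76, IL6R by 2.73 ± 0.66, LIF by 2.70 ± 0.54 and OSMR by 1.57 ± 0.24 (limma's moderated SE, 2 lines per origin). Their adjusted p-values in limma were 0.181, 0.263, 0.225 and 0.176. LIFR differed the other way, by -0.98 ± 0.30 (adjusted p = 0.357). None of the 8 members passed, where 5 genes (0.0344%) passed over all, and 5 members had an unadjusted p under 0.05, against 11.3% of genes. The fit takes SKNAS and SKNAS/shHIF1a as 2 replicates, although by its name the latter comes from SKNAS, so these SEs can understate the spread. The contrast is one that the choice of members had in view, so these values are given as descriptions.

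Under vehicle for 48 h, SOCS3 was the member that passed between the origins, at 5.45 ± 0.42 higher in SKNAS-derived lines (limma, SE, 2 lines per origin, adjusted p = 0.0329), where 1.67% of all tested genes were called and 1.05% were called higher. SKNAS/shHIF1a comes from SKNAS by its name, so the SKNAS-derived origin holds 1 independent line, and the test, which takes the pair as 2 replicates, can understate the spread. OSMR was 5.95 ± 1.09 higher and LIF 2.89 ± 0.44 higher, and neither passed (adjusted p = 0.109 and 0.0901). IL6ST was 1.39 ± 0.23 higher (adjusted p = 0.0974) and IL11 1.00 ± 0.85 higher (adjusted p = 0.567). The SOCS3 call ended without SKNAS, without SKNAS/shHIF1a, without NB1691, and with the mean of its probe sets, and over 10 alternatives its adjusted p ran from 0.0259 to 0.217. OSMR passed without NB1691 (adjusted p = 0.0329) and without SKNBE2 (adjusted p = 0.0212), in a range of 0.0212 to 0.484 over its 10 alternatives, and IL6ST passed without SKNBE2 (adjusted p = 0.0451, range 0.0451 to 0.563). In a count over all 8 arrays by the brightest probe set, 6 of the 9 members had every SKNAS-derived array above every other array. The 6 were LIF, IL6R, IL6ST, LIFR, OSMR and SOCS3, and 15.5% of tested genes met the same rule. For LIFR the gap was narrow, with SKNAS/shHIF1a at 9.57 and SKNBE2 at 9.50 under ciclopirox. The origins overlapped in the LIFR probe sets with means of 8.63 and 8.15, but not in the one with 5.59. For IL6R, IL6ST and SOCS3 they overlapped only in probe sets with means of 3.22 or lower.

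SKNAS/shHIF1a was compared with SKNAS over both treatments. SOCS3 was lower in the knockdown line by 1.01 under vehicle and 1.13 under ciclopirox, with a fitted difference of -1.07 ± 0.21 (limma, SE, 2 arrays per line, adjusted p = 0.0908, 0.0536 to 0.145 over 9 alternatives), and it did not pass. A second SOCS3 probe set gave -1.01 and -1.78, and the third -0.15 and -0.23. IL11 was 2.09 lower in the knockdown line under vehicle and 0.23 higher under ciclopirox. LIF likewise was 1.04 lower under vehicle and 0.27 higher under ciclopirox. The second IL11 probe set gave -0.28 under vehicle and -0.12 under ciclopirox, so the lower vehicle level of IL11 in the knockdown line rests on the brightest probe set, and LIF had no other. IL6R was 0.34 higher in the knockdown line under vehicle and 2.36 higher under ciclopirox, and STAT3 was 0.18 and 0.24 higher. The second IL6R probe set gave 0.12 and 1.59, and the third, below the filter, -0.21 and 0.19. None of the 8 members passed, where 1.58% of genes did and 0.744% were called higher, and with 1 array per line and treatment the difference in response between these lines was not tested.

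**Figure D3:**
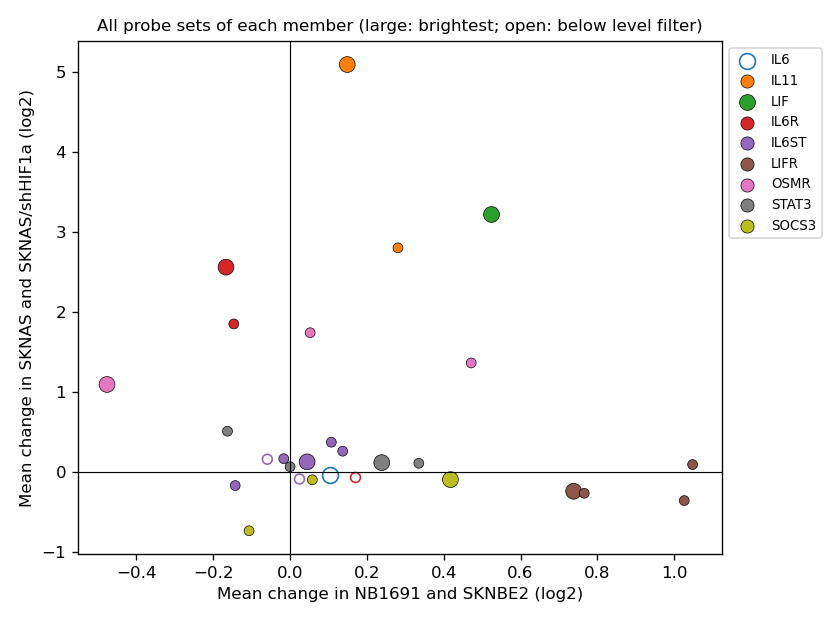
Each point is 1 of the 28 probe sets of the members, with its mean change in NB1691 and SKNBE2 on the x axis and in SKNAS and SKNAS/shHIF1a on the y axis, both in log2 units; large points are the brightest probe set of a gene and open points lie below the level filter. Both IL11 probe sets, LIF, 2 of 3 IL6R and all 3 OSMR probe sets lie above 1 on the y axis, and all 4 LIFR probe sets lie to the right of 0.5 on the x axis.

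Of 28 probe sets, 24 were above the filter, 8 were at least 2-fold higher in both SKNAS-derived lines and 0 were so in both NB1691 and SKNBE2. By gene, 2.47% and 0.468% of tested genes met these rules, and no share over all probe sets was computed. The 8 belong to IL11, LIF, IL6R and OSMR, the genes already counted by their brightest probe set, so they add no further gene.

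Genes whose 4 changes lay nearest to those of IL11, by Euclidean distance over the 4 lines among 14509 other tested genes, were the chemokine gene CCL5 (distance 0.36), the matrix metalloproteinase gene MMP9 (0.86) and COXFA4L3 (1.16). CCL5 had changes of 3.75 in SKNAS, 6.34 in SKNAS/shHIF1a, -0.13 in NB1691 and 0.08 in SKNBE2. Nearest to LIF were the receptor gene GPRC5B (0.79), the growth factor gene FGF18 (0.82) and HBEGF, which encodes an EGF-family ligand (0.83). HBEGF had changes of 2.48, 3.26, 0.48 and -0.16 in SKNAS, SKNAS/shHIF1a, NB1691 and SKNBE2. Nearest to IL6 were NKX2-5, RPS14P3 and ENDOV, all with changes within 0.20 of 0, as IL6 itself.

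Among the other genes of the pathway, 28 of 32 had a probe set and 24 were tested, and 0 of them were called by limma for ciclopirox against vehicle, where the whole table also gave 0. At least 2-fold higher in both SKNAS-derived lines was 1 of the 24, where 2.47% of all tested genes were. It was IL27RA, a receptor chain that pairs with gp130 for interleukin-27. IL27RA had 4.60 under vehicle and 5.73 under ciclopirox in SKNAS, 3.70 and 5.63 in SKNAS/shHIF1a, 4.54 and 3.91 in NB1691 and 5.43 and 5.17 in SKNBE2. EBI3, a subunit of interleukin-27, had levels of 2.82 and 3.61 in SKNAS and 2.74 and 5.64 in SKNAS/shHIF1a, and 2.85 to 3.12 in the other lines. IL12A, a subunit that can also pair with EBI3, had changes of 0.35 and 1.69 in these SKNAS-derived lines, and -0.81 and -0.05 in NB1691 and SKNBE2.

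IL11RA, the binding receptor for IL11, was lower under ciclopirox in all 4 lines, by 0.73 in SKNAS, 1.05 in SKNAS/shHIF1a, 1.58 in NB1691 and 0.30 in SKNBE2. Its level was 8.82 under vehicle and 8.08 under ciclopirox in SKNAS, 8.58 and 7.52 in SKNAS/shHIF1a, 7.35 and 5.77 in NB1691, and 8.35 and 8.05 in SKNBE2. The mean change was -0.92 ± 0.22 (limma's moderated SE, n = 4 lines) and did not pass (limma, adjusted p = 0.166). Receptor and ligand thus differed in opposite directions in the SKNAS-derived lines, and only the receptor was lower in NB1691 by 2-fold.

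The kinase and STAT genes had a median change of 0.41 in SKNAS-derived lines and 0.10 in the others over 6 tested, with TYK2, a Janus kinase, at 0.58 and 1.00 in SKNAS and SKNAS/shHIF1a, and STAT5A at 0.30 and 1.20. The 12 tested inhibitors, phosphatases and adaptors had medians of 0.10 and 0.09. Among them the adaptor SHC1 had -1.67 in NB1691 and 0.17 and 0.02 in the SKNAS-derived lines, and CISH, a SOCS-family gene, had -0.74 and -0.72 in the SKNAS-derived lines.

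STAT3 target genes gave a median change of 0.64 in SKNAS-derived lines and 0.35 in the others over 13 tested of 22 listed, beside -0.03 and -0.01 over all tested genes, and 7 of the 13 were higher in all 4 lines, where 11.8% of tested genes were. The adhesion gene ICAM1, which NF-kB also induces, had changes of 3.37 and 3.10 in SKNAS and SKNAS/shHIF1a against 0.47 and 0.19 in NB1691 and SKNBE2. PIM1, a kinase gene, had 0.97, 1.78, 1.24 and 0.03 in the same order. 0 of the 13 were called by limma in the main fit or between origins.

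A list of inducers of the cytokine genes also held receptors of those inducers and NF-kB regulators. Of its 16 tested genes, 11 were at least 2-fold higher in both SKNAS-derived lines, where 2.47% of all tested genes were. In both NB1691 and SKNBE2, 0 were so. NFKBIA, which encodes an NF-kB inhibitor, was 1 of the 11, with changes of 1.73 in SKNAS and 1.85 in SKNAS/shHIF1a. This list and the others were chosen with earlier results of these data known, so their counts are descriptions. The list median was 1.26 in SKNAS, 1.81 in SKNAS/shHIF1a, 0.24 in NB1691 and 0.04 in SKNBE2. IL1B, an inflammatory cytokine that activates NF-kB, had levels of 7.46 and 10.23 in SKNAS, 8.28 and 12.23 in SKNAS/shHIF1a, 3.12 and 3.24 in NB1691, and 3.36 and 3.24 in SKNBE2. Under vehicle IL1B was called higher in SKNAS-derived lines by 4.63 ± 0.36 (limma, SE, adjusted p = 0.034), as was NFKBIZ, an NF-kB co-factor needed for IL6 induction, by 4.14 ± 0.33 (adjusted p = 0.034). As for SOCS3, these calls take SKNAS and SKNAS/shHIF1a as 2 replicates, which can understate the spread. IL1R1, the receptor for IL1B, differed between knockdown and parent by -2.05 ± 0.16 (limma, SE, adjusted p = 0.0056). That fit has 2 arrays per line, 1 per treatment, and no repeat cultures. With 1 knockdown line and no control hairpin line in the labels, its p-value does not measure spread between knockdown lines. Levels of TNF, named after its values were seen, were 3.56 and 5.03 in SKNAS, 3.38 and 7.16 in SKNAS/shHIF1a and 3.30 to 3.72 in the others.

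Of 5 genes that control cytokine mRNA decay, 2 were at least 2-fold higher in both SKNAS-derived lines, where 2.47% of all tested genes were. They were ZFP36, named after its values were seen, and ZFP36L1, both of which encode proteins that bind AU-rich elements and promote decay. The others, also named after their values were seen, had changes in SKNAS and SKNAS/shHIF1a of 0.725 and 1.30 (ZC3H12A), 0.08 and 0.34 (ARID5A), and -0.42 and -0.65 (ELAVL1). ZFP36L1 stood at 9.04 and 9.16 in SKNAS-derived lines under vehicle, and at 2.48 to 2.80 on the 4 arrays of NB1691 and SKNBE2, below the filter.

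**Figure D4:**
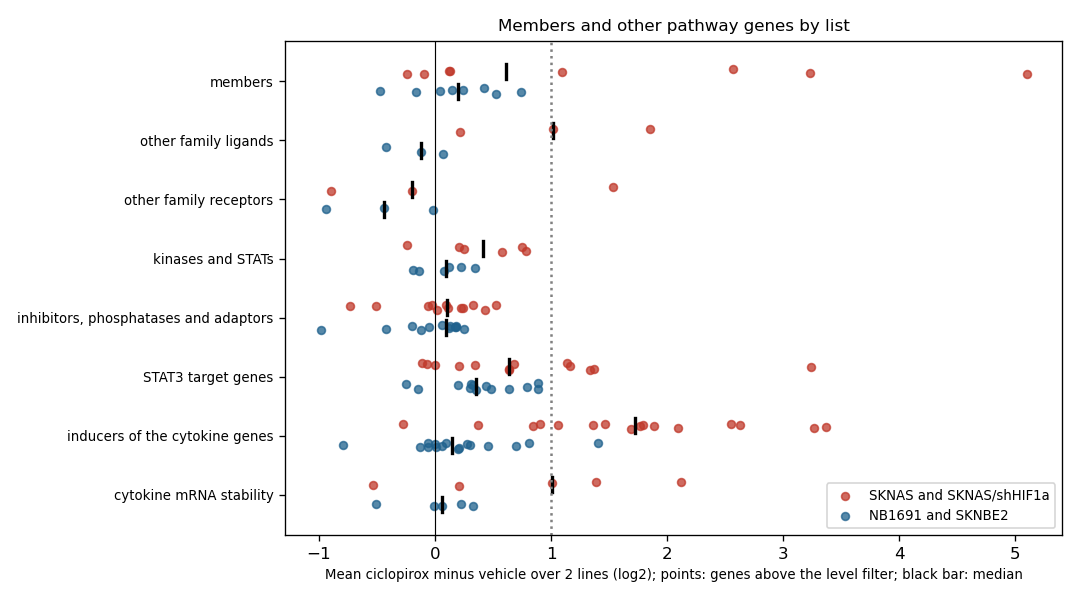
Mean ciclopirox minus vehicle change on the x axis, in log2 units, over SKNAS and SKNAS/shHIF1a (red) and over NB1691 and SKNBE2 (blue), for each gene above the level filter in 8 lists on the y axis; black bars are list medians. The inducer list has the widest gap, with 11 of 16 genes at least 2-fold higher in both SKNAS-derived lines. The lists were chosen with earlier results of these data known.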

How the data were processed

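The authors deposited log2 signals made with RMA, per the submitters' processing notes, from arrays with perfect-match probe sets hybridised with biotinylated cRNA, and the software version is not given in the sources used here. No scaling was added. Gene names came from GEO's platform annotation, in which 40914 probe sets had 1 symbol, 864 had several, 12835 were unnamed and 102 were array controls.

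Samples were grouped by treatment and line as labelled, and the cell line pairs each vehicle array with its ciclopirox array. Models were fitted with limma 3.58.1 in R 4.3.3 on all 14517 genes, by two-sided tests called at a Benjamini-Hochberg adjusted p under 0.05, and were tested on simulated data. The fits were treatment with line as a block, the 4 changes by origin, knockdown against parent, and origin under vehicle. Members and lists were chosen with earlier results of these data known. All members were named, from each list up to 3 called genes or else the 2 with the largest mean change, and the 3 genes nearest to IL6, IL11 and LIF. Alternatives covered lines left out, probe set choice, filter, normalization, variance trend, block and arrays used, and the second brightest probe set was added after seeing the data. Motifs were searched with Python 3.11.15. The number of arrays limits the precision.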

Additional observations from a re-analysis of the deposited data

Results flagged for a closer look

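For 4 members, by the brightest probe set, both SKNAS-derived lines moved one way and both NB1691 and SKNBE2 the other. In NB1691 and SKNBE2, IL6R (3.21 to 3.49) and SOCS3 (3.22 to 3.73) lay close to the filter at log2 3.21. OSMR in SKNBE2 (3.10 and 2.75) lay below it. The signs at these levels are therefore near background. The difference in log2 change, SKNAS-derived minus other lines, was 2.73 for IL6R, 1.57 for OSMR, -0.98 for LIFR and -0.51 for SOCS3. Opposite signs of this kind were found for 12.9% of all tested genes. In limma, none of these differences passed over all genes, with adjusted p-values of 0.263, 0.176, 0.357 and 0.485, so a difference between origins was not established. That fit takes the related SKNAS-derived lines as separate replicates, which can understate the spread. For each of the 4 at least 1 other probe set broke the pattern: 1 of LIFR was higher in all 4 lines (0.03, 0.16, 1.72 and 0.37 in SKNAS, SKNAS/shHIF1a, NB1691 and SKNBE2), the third of IL6R, below the filter, had -0.26 in SKNAS and 0.44 in NB1691, and those of OSMR and SOCS3 changed sign in NB1691 or SKNBE2.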

How the results depend on the processing

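The count of members at least 2-fold higher in both SKNAS-derived lines was 4, 3 with probe sets averaged per gene and 4 under each other alternative run. In NB1691 and SKNBE2 it was 0, and 0 to 1 with a line left out, the 1 being LIFR with SKNBE2 left out. For ciclopirox against vehicle, limma called 0 genes and 0 members under every alternative run, including 0 with no replicate block. For the response by origin, 5 genes were called, 0 with any line left out and 9 with probe sets averaged per gene, and 0 members throughout. For knockdown against parent, 230 genes were called, 139 to 184 with a line left out (139 without SKNBE2) and 393 with only the arrays of SKNAS and SKNAS/shHIF1a, and 0 members throughout. For origin under vehicle, 243 genes were called and 0 to 1610 with a line left out (0 without SKNAS or SKNAS/shHIF1a, 645 without NB1691, 1610 without SKNBE2), and the count of members, 1, ran from 0 to 3 with a line left out and was 0 with probe sets averaged per gene. A fit without 1 line leaves a lone line in an origin, which is assumed to vary like the others. Of the mean changes of members by origin, 44 of the values under other scalings or probe set choices stayed within the spread between the 2 lines and 10 moved beyond it, 4 for OSMR, 3 for SOCS3, 2 for STAT3 and 1 for IL6R. The cause of these differences was not tested.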
